A study of Solanum lycopersicum with 40 samples.

Results

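Lipoxygenases and the enzymes that make jasmonate were followed in tomato (Solanum lycopersicum, cv. Micro-Tom) through 6 genes: LOX1.1, TomloxE, loxC, loxD, AOC and OPR3. They were chosen by symbol or synonym in the annotation of the Affymetrix tomato array, where each has 1 probe set. These are 6 of 10038 probe sets for tomato transcripts on the array and 6 of 802 genes with a symbol.

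The study set transgenic lines that express an InsP 5-ptase gene (its product dephosphorylates inositol phosphates, second messengers of calcium signalling) against controls without it. The groups were line N6, line N7, a vector control (VC) and wild type (WT), each with 4 arrays of ripe fruit, 3 of leaf and 3 of root tip, 40 arrays in all. Fruit came from plants kept for 9 weeks in a growth chamber. Leaf samples were the first leaves of 10-day seedlings grown on agar in the light, and root tips came from 10-day seedlings described as etiolated, although the growth text speaks of light. N6 and N7 are 1 transgenic line each, and the promoter of the transgene is not given in the sources used here. The titles call the fruit replicates biological. For leaf and root tip nothing says that replicates came from separate plants, so those p-values measure a spread that may be technical.

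Lipoxygenases add oxygen to polyunsaturated fatty acids, and plants hold classes that act at different carbon atoms of the chain. In the chloroplast the product of one class passes through allene oxide synthase and allene oxide cyclase (AOC) to oxophytodienoic acid, which OPR3 then reduces in the peroxisome on the way to jasmonic acid, the wound and defence hormone. Other lipoxygenase products become volatile aldehydes and alcohols, which make part of the flavour of ripe tomato.

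Expression was read as a signal per probe set on a linear scale, already scaled so that each array had the same trimmed mean of 500. Signals under a floor of 50 were set to the floor before log2 was taken. Differences are lines (the mean of N6 and N7) minus controls (the mean of VC and WT) on the log2 scale unless another pair is named. They were tested with limma, with a gene called at a Benjamini-Hochberg adjusted p under 0.05 over all probe sets tested in the tissue. In these bulk samples, fewer cells of a type and less RNA per cell cannot be told apart.

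Some fruit arrays went against their labels in reporter probe sets, which match no tomato gene. A reporter probe set that lay above the floor on all 6 line arrays of leaf and of root tip read 237 to 336 in fruit N7, but 4.76 to 20.3 in fruit N6, and under 25 on every control array. A second reporter probe set read 1198 to 4416 in fruit WT and 5161 in fruit VC replicate 4, but at most 10.1 in the other fruit VC arrays. Fruit WT replicate 3 and VC replicate 4 also stood nearest to the lines in several genes below. These 2 arrays also stood apart in the log2 3'/5' ratio of control genes, at 2.67 and 2.96 against 3.53 to 4.70 on the other fruit controls, and in how many probe sets exceeded the floor, at 63.8% and 61.3%. For LOX1.1, TomloxE, loxD, OPR3 and a further gene, HPL, fruit results are therefore given in several settings. These are all arrays, without WT 3 and VC 4, and N7 against VC 1 to 3. The fruit differences of other genes, among them loxC and AOC, are not given in the last 2 of these settings. The setting without WT 3 and VC 4 keeps fruit N6 and the other WT arrays. Leaving out the controls nearest to the lines can itself widen a difference. N7 against VC 1 to 3 uses none of the arrays at odds with their labels in these reporters. Its groups did not overlap in the 3'/5' ratio, a measure of RNA quality, at 2.88 to 3.71 in N7 against 4.23 to 4.70 in VC 1 to 3. Genotype and RNA quality cannot be told apart there.

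In ripe fruit the lines held more LOX1.1, TomloxE and OPR3 RNA than the controls and less loxD RNA, while loxC and AOC did not pass the test. Of the 6 genes, 3 were called higher and 1 lower, a share to be read against the 31.1% of all 6208 probe sets tested that were called in fruit (16.6% higher, 14.5% lower). The median log2 difference of the 6 was 0.47, against 0.04 over all probe sets tested. The 6 genes, like the lists further below, were chosen with earlier results of these data known. Such shares and medians, here and below, therefore do not test the pathway. In leaf AOC was lower and loxC higher in the lines, and in root tip no gene of the 6 was called.

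**Figure D1:**
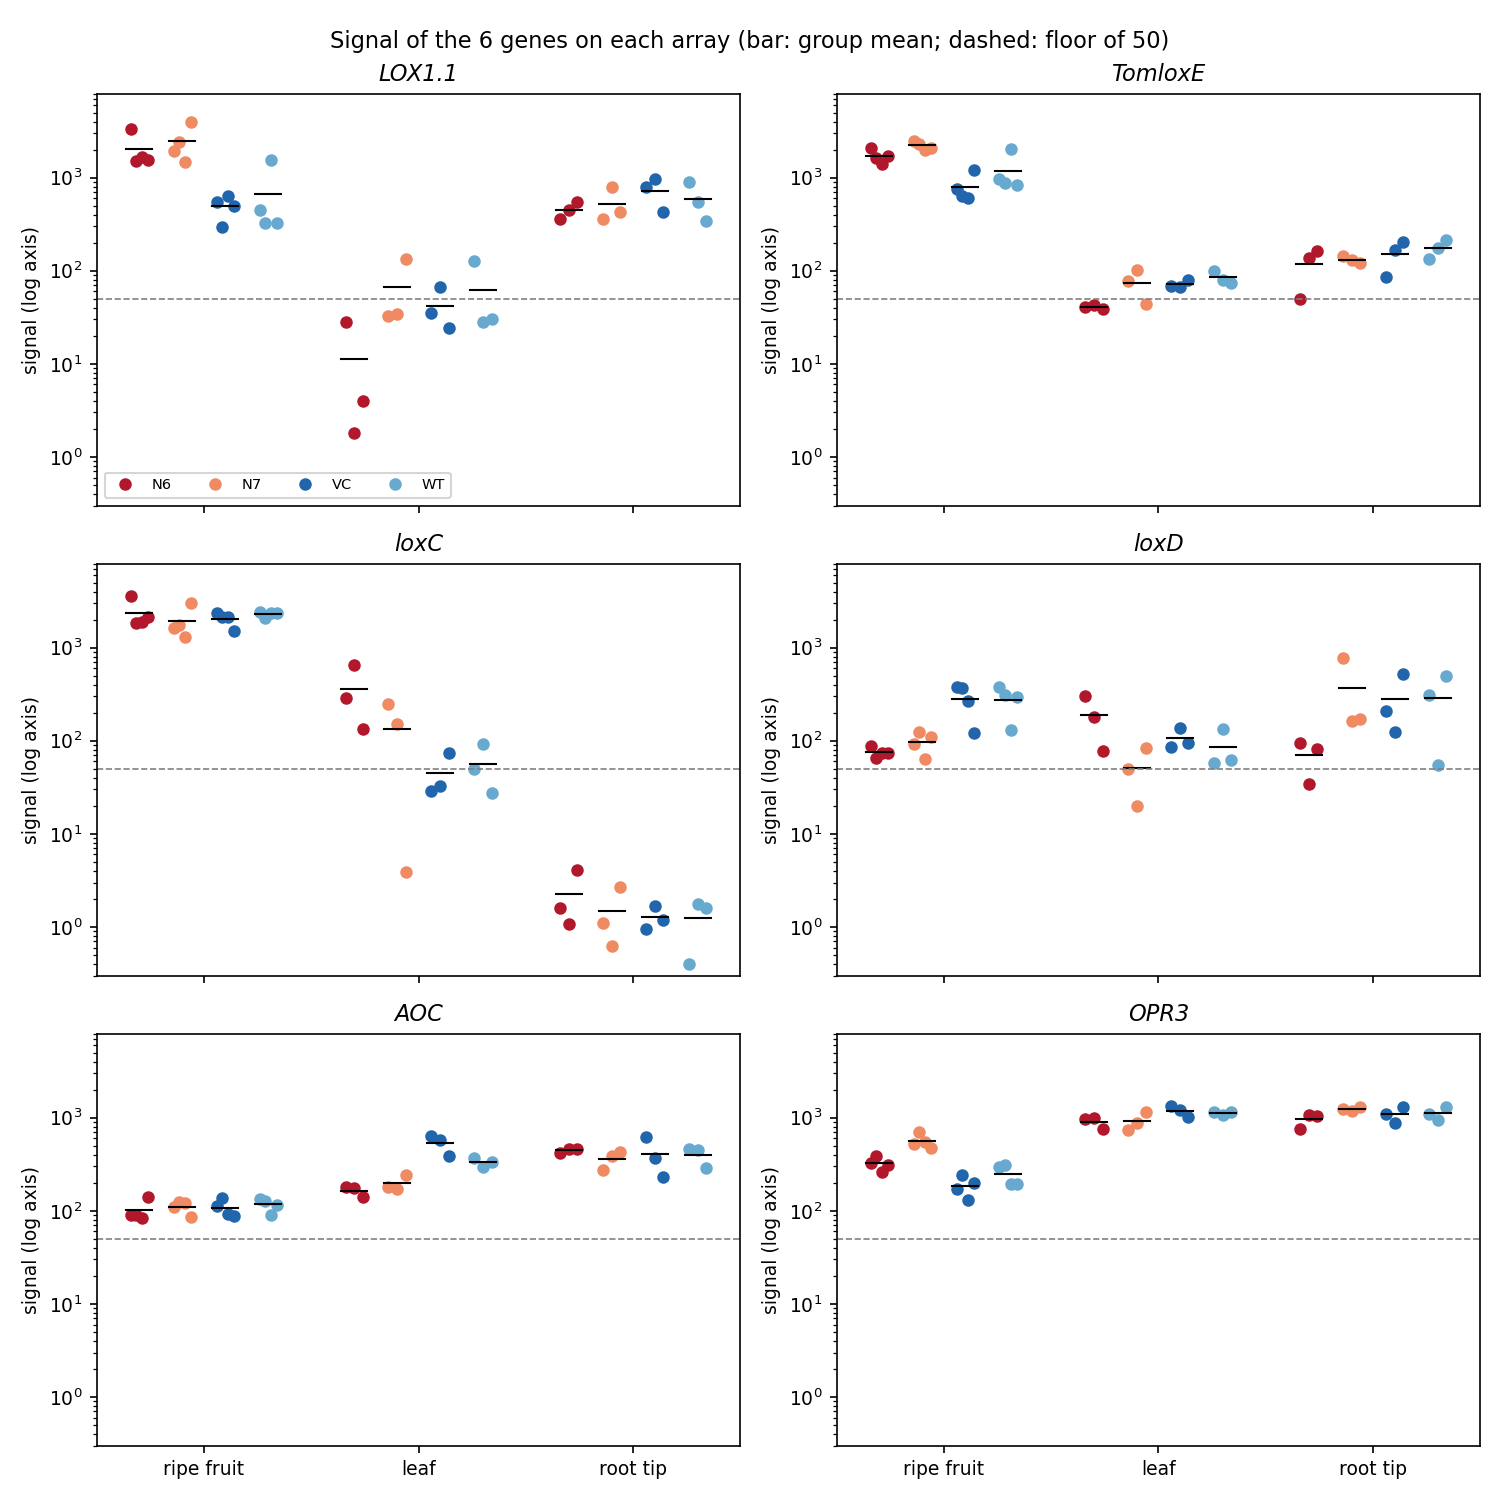
Signal (log axis) of each of the 6 genes on each of 40 arrays, by tissue, with the lines N6 and N7 left of VC and WT; short bars are group means and the dashed line is the floor of 50. In fruit the line arrays of LOX1.1 read 1486 or more and those of loxD 124 or less; loxC lies above 1300 in fruit and under 5 in root tip.

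LOX1.1, also called TomloxA, codes for a cytosolic lipoxygenase of ripening fruit and seeds. Its fruit signals were 3351, 1522, 1646 and 1550 in N6 and 1945, 2405, 1486 and 3961 in N7, against 553, 293, 641 and 491 in VC and 448, 329, 1558 and 327 in WT. All 8 line arrays lay above the control mean, and 5 lay above the highest control array, WT 3; without that array the groups would not touch. The difference was 2.06 ± 0.31 (SE), a 4.18-fold higher level in the lines (limma adjusted p = 1.29e-04). Without WT 3 and VC 4, where 54.2% of probe sets were called, it was 2.33 (limma adjusted p = 4.99e-07), and for N7 against VC 1 to 3, where 41.1% were called, it was 2.29 (limma adjusted p = 3.85e-04). LOX1.1 was thus called with and without WT 3 and VC 4, and it had the largest difference of the 6 genes in fruit.

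TomloxE, another fruit lipoxygenase, was also higher in line fruit. It read 2076, 1608, 1389 and 1694 in N6 and 2488, 2305, 1954 and 2099 in N7, against 752, 640, 603 and 1194 in VC and 976, 873, 2005 and 838 in WT. The line arrays all lay above the control mean, and WT 3 was again the control array among them. The difference was 1.07 ± 0.18 (limma adjusted p = 2.97e-04), and it was 1.32 without WT 3 and VC 4 (limma adjusted p = 9.40e-09). For N7 against VC 1 to 3 it was 1.73 (limma adjusted p = 4.83e-06), more than 1.5 times the value over all arrays.

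The chloroplast lipoxygenases went apart from these. loxC, known in tomato for making the precursors of green-leaf flavour volatiles, read 3573, 1852, 1873 and 2147 in fruit N6 and 1617, 1747, 1302 and 3031 in N7, against 2337, 2114, 2150 and 1509 in VC and 2445, 2096, 2338 and 2366 in WT. The groups lay over one another, and the difference was -0.08, with a 95% interval of -0.43 to 0.28 (limma adjusted p = 0.764). That interval lies below the difference of LOX1.1 and of TomloxE in the same fruit.

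loxD codes for the lipoxygenase that feeds wound-induced jasmonate synthesis in tomato. Its fruit signals were 87.7, 65.2, 74.3 and 72.9 in N6 and 92.3, 124, 63.3 and 110 in N7, against 378, 369, 267 and 121 in VC and 375, 309, 131 and 293 in WT. Here 7 of 8 line arrays lay below the lowest control array, and the lowest controls were VC 4 and WT 3, the same arrays that sat apart in LOX1.1 or in the reporter. The difference was -1.62 ± 0.26, a 3.08-fold lower level in the lines (limma adjusted p = 2.11e-04). It was -1.97 without WT 3 and VC 4 (limma adjusted p = 4.21e-08) and -1.82 for N7 against VC 1 to 3 (limma adjusted p = 4.19e-04).

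Of the enzymes after the lipoxygenases, AOC, which closes the ring of the jasmonate precursor, read 83.6 to 141 with a median of 100 over the 8 line arrays of fruit, against 88.9 to 138 with a median of 115 over the 8 control arrays. Its difference was -0.09, with a 95% interval of -0.42 to 0.23 (limma adjusted p = 0.680). OPR3, the reductase that acts on the jasmonate precursor, read 329, 387, 262 and 314 in N6 and 528, 701, 547 and 477 in N7, against 171, 244, 130 and 197 in VC and 293, 310, 192 and 192 in WT. All but 1 of the 8 line arrays were above the highest control array, the exception being N6 replicate 3. The OPR3 difference was 1.02 ± 0.16, or 2.02-fold (limma adjusted p = 2.16e-04). It was 0.98 without WT 3 and VC 4 (limma adjusted p = 1.02e-04) and 1.66 for N7 against VC 1 to 3 (limma adjusted p = 3.74e-04). The value for N7 is more than 1.5 times that of all arrays.

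**Figure D2:**
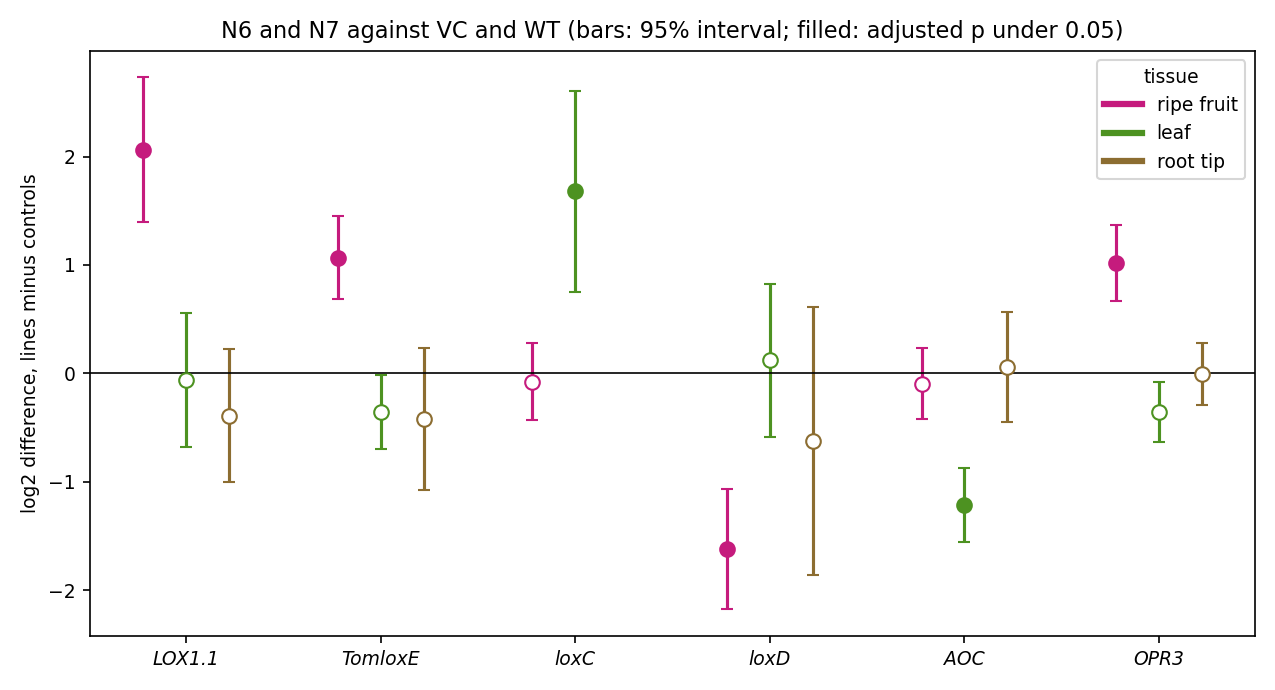
Log2 difference of lines minus controls for the 6 genes in ripe fruit, leaf and root tip, with 95% intervals; filled points have an adjusted p under 0.05. LOX1.1 (2.06), TomloxE (1.07) and OPR3 (1.02) are filled above 0 and loxD (-1.62) below it in fruit, AOC (-1.21) and loxC (1.68) are filled in leaf, and no point is filled in root tip.

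Each line on its own gave the same 4 calls in fruit. Against VC, where 17.5% of probe sets were called for N6 and 22.1% for N7, LOX1.1 differed by 2.00 in N6 (limma adjusted p = 0.00524) and by 2.27 in N7 (limma adjusted p = 0.00203). TomloxE differed by 1.13 in N6 (limma adjusted p = 0.00566) and by 1.52 in N7 (limma adjusted p = 6.25e-04). Both comparisons use the same VC arrays, so their likeness is partly shared.
loxD differed by -1.80 in N6 (limma adjusted p = 0.00302) and by -1.45 in N7 (limma adjusted p = 0.0110); with the 3'/5' ratio of control genes, a measure of RNA quality, as a covariate the N7 call was lost (-0.99, limma adjusted p = 0.0597). OPR3 differed by 0.82 in N6 (limma adjusted p = 0.0226) and by 1.62 in N7 (limma adjusted p = 1.61e-04). The OPR3 call in N6 was lost without VC 1, VC 3 or N6 2, at limma adjusted p-values of 0.0612, 0.0787 and 0.0771, at 0.0501 without N6 1 and at 0.0524 with median scaling.

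N7 and N6 were also set against each other, a comparison in which 2.90% of probe sets were called in fruit. None of the 6 genes was. OPR3 came nearest, 0.80 higher in N7 with a 95% interval of 0.31 to 1.29 (limma adjusted p = 0.0774). Without WT 3 and VC 4, a fit with a smaller spread in which 11.8% of probe sets were called, OPR3 (limma adjusted p = 0.0240) and TomloxE (0.40, limma adjusted p = 0.0492) passed the threshold. For LOX1.1 the N7 minus N6 difference was 0.27, with a 95% interval of -0.67 to 1.21.

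**Figure D3:**
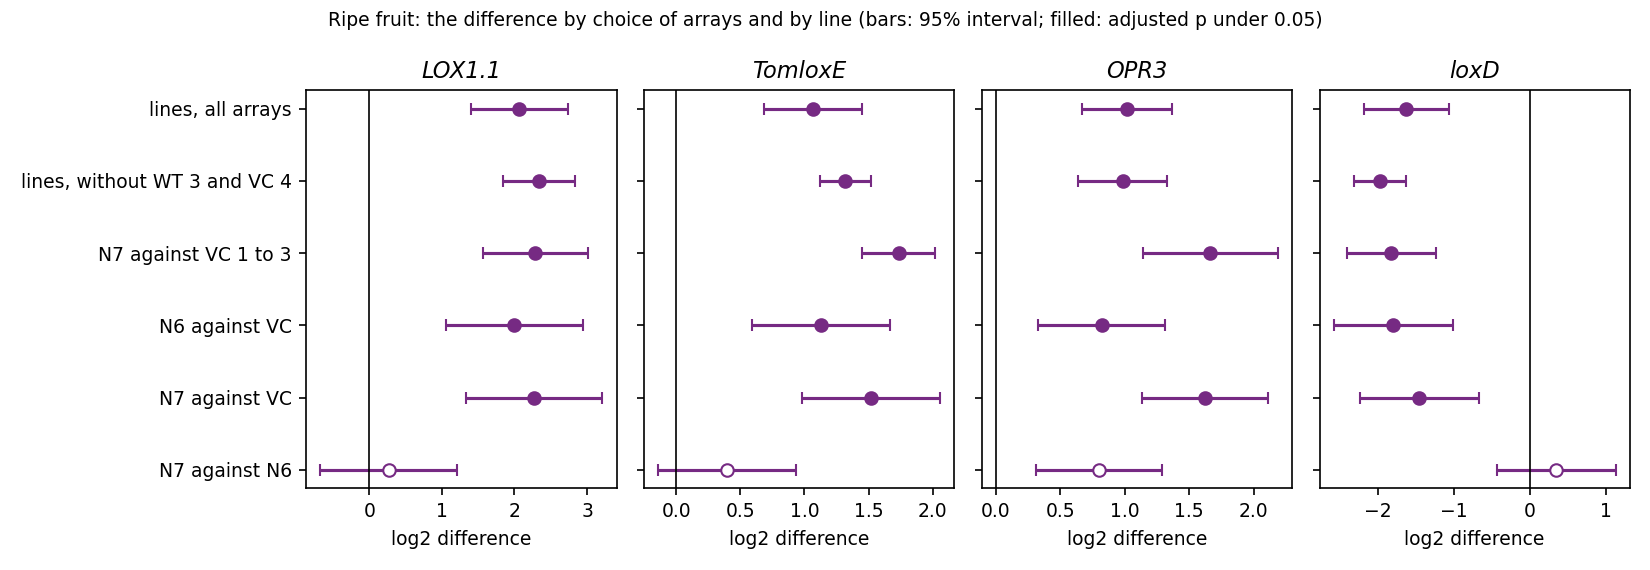
Log2 differences in ripe fruit, with 95% intervals, of the 4 called genes by choice of arrays and by line; filled points have an adjusted p under 0.05. The difference stays on its side of 0 for lines over all arrays, without WT 3 and VC 4, for N7 against VC 1 to 3 and for each line against VC, and the points for N7 against N6 are open.

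Genes of green tissue moved in the same fruit. Over 5 photosynthesis genes used to check the leaf label (PsbQ, CAB4, PSBO, PSBP and PSI-D, all 5 above the floor by median in both groups), the summed signal was 528 to 1074 on line arrays, against 2524 to 5334 on control arrays. Over the 7 ripening genes used to check the fruit label, it was 28609 to 42064 on line arrays, against 34112 to 56113 on control arrays. Among these PG2, a polygalacturonase of softening fruit, read 1798 to 4778 on line arrays, against 5685 to 10536 on control arrays. EXP1, an expansin, read 4151 to 6886 on line arrays, against 3067 to 5467 on control arrays. The part of these genes in the lipoxygenase results was not tested. Seed RNA was covered by 1 gene, MAN2, which lay under the floor on all fruit arrays.

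In leaf the background was 18.4% of 6535 probe sets (9.78% higher, 8.58% lower), and of the 6 genes 1 was higher and 1 lower, with a median difference of -0.21 against 0.01 over all probe sets. AOC was the lower one. It read 178, 177 and 140 in N6 and 179, 173 and 243 in N7, against 630, 581 and 388 in VC and 368, 298 and 334 in WT. The groups did not overlap, and no other gene of the 6 was so separated in any tissue. The share of all probe sets separated in this way was not counted, so this does not set AOC apart from the background. The difference was -1.21 ± 0.16, a 2.32-fold lower level in line leaf (limma adjusted p = 4.98e-04). Against VC alone it was -1.67 in N6 (limma adjusted p = 9.98e-04), in a comparison with 10.6% of probe sets called, and -1.41 in N7 (limma adjusted p = 0.00497), with 7.07% called. VC lay above WT by 0.65, with a 95% interval of 0.17 to 1.14, which was not called (limma adjusted p = 0.953; 0.0153% of probe sets called), so the distance of the lines depends on which control is used.

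loxC, the flavour lipoxygenase, was the higher one in leaf. It read 285, 657 and 133 in N6 and 246, 151 and 3.92 in N7, against 28.9, 32.9 and 73.5 in VC and 50.0 (just under the floor), 93.1 and 27.4 in WT. So 5 of 6 line arrays lay above every control array, N7 replicate 3 lay below them all, and 4 of 6 controls were at the floor. The difference was 1.68 ± 0.42 (limma adjusted p = 0.0176). It was called for N6 against VC (2.36, limma adjusted p = 0.0275), a call that held in 13 of 20 alternatives with adjusted p up to 0.175, and not for N7 against VC (1.11, limma adjusted p = 0.296), but the test of N7 against N6 did not pass either (-1.25, 95% interval -2.56 to 0.06, limma adjusted p = 0.216; 4.48% of probe sets called). The call was lost when the 3'/5' ratio entered as covariate (1.04, limma adjusted p = 0.198), and against either control alone. That ratio was 3.97 to 4.90 (log2) on line arrays of leaf and 4.37 to 5.13 on control arrays (exact two-sided permutation p = 0.0498, adjusted over 3 tissues 0.149).

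The other genes did not pass in leaf. OPR3 read 972, 983 and 758 in N6 and 734, 878 and 1166 in N7, against 1346, 1210 and 1028 in VC and 1158, 1066 and 1146 in WT. All but 1 of the 6 line arrays lay below the lowest control, N7 replicate 3 being the exception. The OPR3 difference was -0.35 ± 0.13 (limma adjusted p = 0.0738), and without N7 replicate 3 it was -0.44 and called (limma adjusted p = 0.0138). TomloxE differed by -0.36 ± 0.16 (limma adjusted p = 0.141), with all 3 N6 arrays under the floor, at 38.9 to 42.7, against 67.3 to 100 over the 6 controls. Without N7 replicate 2 it was -0.48 and called (limma adjusted p = 0.0361).
loxD had a wide spread in leaf, with 305, 182 and 77.9 in N6 and 50.3, 20.0 and 83.8 in N7, against 86.2, 138 and 95.5 in VC and 58.2, 135 and 62.2 in WT. Its difference was 0.12, with a 95% interval of -0.59 to 0.83. N7 minus N6 was -1.45 for loxD, with a 95% interval of -2.45 to -0.45 that did not pass after adjustment (limma adjusted p = 0.0939). LOX1.1 was above the floor on 1 of 6 line arrays and 2 of 6 control arrays of leaf, too few to give it a direction there.

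In root tip 33 of 6495 probe sets were called, or 0.508%, and 846 had an unadjusted p under 0.05. None of the 5 genes tested was called, which says little about them where so few probe sets were called. LOX1.1 read 362, 448 and 544 in N6 and 359, 791 and 425 in N7, against 786, 958 and 430 in VC and 890, 551 and 340 in WT. The groups overlapped, and the difference was -0.39, with a 95% interval of -1.001 to 0.221. TomloxE differed by -0.42 (95% interval -1.08 to 0.24), on signals of 50.0 to 164 over the lines and 85.4 to 214 over the controls.
loxD varied most in root tip. It read 94.5, 33.9 and 80.6 in N6 and 772, 164 and 171 in N7, against 208, 123 and 517 in VC and 310, 54.8 and 492 in WT. Every N7 array lay above every N6 array, and the controls spanned most of that range. Its difference was -0.62, with a 95% interval of -1.86 to 0.62, and N7 minus N6 was 1.94 (95% interval 0.19 to 3.70, limma adjusted p = 1.00; 0.0462% of probe sets called).
The jasmonate enzymes were closest to 0 in root tip. AOC differed by 0.06 (95% interval -0.45 to 0.56) and OPR3 by -0.01 (95% interval -0.29 to 0.28). OPR3 read 752 to 1305 over the lines and 886 to 1299 over the controls. loxC lay between 0.40 and 4.05 on all 12 root tip arrays, under the floor, and was not tested.

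Whether the lines' difference itself changed from tissue to tissue was tested in a fit over all 40 arrays. Between leaf and fruit, where 27.4% of probe sets were called, all 6 genes passed. The leaf difference minus the fruit difference was -2.12 for LOX1.1 (limma adjusted p = 5.14e-04), -1.42 for TomloxE (limma adjusted p = 9.66e-04) and -1.37 for OPR3 (limma adjusted p = 4.01e-06). Those are the 3 genes that were higher in line fruit. For LOX1.1 the leaf term is set by the floor, since 5 of 6 line and 4 of 6 control arrays of leaf lay at it, and for TomloxE 4 of 6 line arrays did. It was -1.12 for AOC (limma adjusted p = 0.00108), 1.76 for loxC (limma adjusted p = 6.18e-04; 4 of 6 control arrays of leaf at the floor) and 1.74 for loxD (limma adjusted p = 0.0221). The loxD value was lost with quantile normalization (1.45, limma adjusted p = 0.0648) and with a floor of 25 (1.58, limma adjusted p = 0.0536).

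Between root tip and fruit, with 20.8% of probe sets called, LOX1.1 (-2.45, limma adjusted p = 1.99e-04), TomloxE (-1.49, limma adjusted p = 0.00110) and OPR3 (-1.02, limma adjusted p = 5.31e-04) differed. loxD did not pass, at 1.00 with a 95% interval of -0.17 to 2.17, nor did AOC, at 0.15. Between leaf and root tip, with 11.5% called, AOC differed by -1.27 (limma adjusted p = 0.00173) and the 4 other genes tested did not pass. The fruit differences enter both comparisons with fruit, so these are not independent of each other.

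The control arrays alone give the level of each gene in the 3 tissues. Most probe sets differed between tissues: 73.5% of those tested between leaf and fruit, 70.6% between root tip and fruit and 73.9% between leaf and root tip. Tissue, plant age and growth setting cannot be told apart in this comparison. Means below are over 6 leaf, 6 root tip and 8 fruit control arrays, ± SD.

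The lipoxygenases had their lowest control level in leaf or root tip. LOX1.1 averaged 52.0 ± 40.5 in leaf and 659 ± 255 in root tip, against 580 ± 413 in fruit. Root tip and fruit could not be ordered (0.30, 95% interval -0.35 to 0.95, limma adjusted p = 0.406), and leaf lay below fruit by 3.02 on the log2 scale (-3.02, limma adjusted p = 2.23e-10), with 4 of 6 leaf arrays at the floor. TomloxE averaged 78.0 ± 11.9 in leaf and 163 ± 47.3 in root tip, against 985 ± 453 in fruit. Every step of its order, fruit over root tip over leaf, was called: -2.55 for root tip minus fruit (limma adjusted p = 4.15e-12) and -1.01 for leaf minus root tip (limma adjusted p = 3.96e-04).
loxC was a fruit transcript in these samples. It averaged 50.95 ± 27.0 in leaf and 1.26 ± 0.52 in root tip, against 2169 ± 296 in fruit. Its fruit level was at least 43.0-fold above the floor that bounds it in root tip, and leaf minus fruit was -5.18 (limma adjusted p = 1.68e-18), a size that the floor partly sets, as 4 of 6 leaf controls lay at it; it was -5.56 to -4.43 across the alternatives. loxD averaged 95.8 ± 34.4 in leaf and 284 ± 191 in root tip, against 280 ± 104 in fruit. Leaf was the lowest (-1.51 against fruit, limma adjusted p = 0.00125; -1.27 against root tip, limma adjusted p = 0.00947), and root tip and fruit were not separated (-0.24, limma adjusted p = 0.606).

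The jasmonate enzymes AOC and OPR3 showed the other order, with their lowest level in ripe fruit. AOC averaged 433 ± 138 in leaf and 404 ± 141 in root tip, against 113 ± 20.1 in fruit. OPR3 averaged 1159 ± 113 in leaf and 1100 ± 173 in root tip, against 216 ± 61.5 in fruit. Leaf minus fruit was 1.90 for AOC (limma adjusted p = 1.69e-11) and 2.47 for OPR3 (limma adjusted p = 5.82e-17). Leaf and root tip did not differ beyond their spread in either, at 0.12 for AOC (95% interval -0.28 to 0.51) and 0.08 for OPR3 (95% interval -0.23 to 0.40).
The line differences can be read beside these levels. In fruit, where its control level was lowest, OPR3 was higher in the lines, at 443 ± 147 against 216 ± 61.5 (n = 8 each), which is still under its lowest control array in leaf or root tip, 886. In leaf, AOC averaged 182 ± 33.4 in the lines against 433 ± 138 in the controls (n = 6 each).

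Across the means of the 12 tissue and genotype groups, the log2 levels of AOC and OPR3 correlated at r = 0.840, those of TomloxE and loxC at 0.852 and those of TomloxE and LOX1.1 at 0.818. AOC and loxC correlated at -0.958. These values describe 12 groups that share 3 tissues. Among 809 probe sets with a symbol, the closest to TomloxE were vsf-1 (r = 0.992), WRKYIId (0.986) and MPK2 (0.985). The closest to LOX1.1 were CTR3 (0.966), GLUII (0.966) and DHS (0.959), and the closest to loxC were JA2 (0.983), Psy1 (0.982) and PR-P2 (0.982). loxD had no match as close, with ER5 first at 0.866. For AOC the first was LIN8 (0.941), and for OPR3 it was kdsA (0.944). Where a gene had several probe sets, its closest one was taken. Another probe set of Psy1 ran opposite to loxC, with control means of 18.9 in fruit, 143 in leaf and 282 in root tip.

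The remaining genes of the pathway on the array were described by lists of symbols. LOXB is a further fruit lipoxygenase, and in the order of genes of the RefSeq assembly SLM_r2.1 it lies on the same chromosome as TomloxE with 3 genes between them. It read 5021 to 7835 over the 8 line arrays of fruit, against 5181 to 7093 over the 8 controls. Its difference was 0.09 ± 0.09 (limma adjusted p = 0.444), and it lay under the floor in leaf and root tip.

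Of 6 other enzymes of oxylipin synthesis (DES, AOS, opr2, OPR1, HPL and Fad7), 2 could be tested in fruit, where 1 was lower and none higher. Of all probe sets in fruit, 14.5% were called lower and 16.6% higher. Fad7, the chloroplast desaturase that makes linolenic acid, differed by -0.69 ± 0.19 (limma adjusted p = 0.0126). Its signals were 128 to 168 in N6 and 247 to 354 in N7, against 209 to 458 in VC and 188 to 364 in WT, and N6 alone lay below all controls. Against WT alone as the control it was not called (-0.53, limma adjusted p = 0.125). Against VC, 1 of the 2 enzymes was called lower in N6, beside 8.6% of all probe sets. In N7 0 were, beside 9.17%, so Fad7 was not called in N7. The median of the 2 was -0.54, against 0.04 over all probe sets. HPL, which splits lipoxygenase products into volatile aldehydes, read 1474 to 1748 in N6 and 1827 to 2165 in N7, against 1007 to 3494 in VC and 1243 to 2966 in WT. The lowest HPL controls were VC 4 and WT 3. Over all arrays HPL was not called (-0.39, limma adjusted p = 0.209), and without VC 4 and WT 3 it was -0.75 (limma adjusted p = 2.86e-07). It was -0.72 for N7 against VC 1 to 3 (limma adjusted p = 6.54e-04). None of the 4 enzymes tested in leaf or of the 5 tested in root tip was called, beside 18.4% and 0.508% of all probe sets. Their medians were -0.22 and -0.16. AOS, which acts just before AOC, was above the floor on only 2 of the 40 arrays.

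Of 4 genes of jasmonate perception and signalling, 1 was higher and 1 lower in line fruit, where 16.6% of all probe sets were called higher and 14.5% lower. MYC2, the transcription factor that drives jasmonate responses, read 1179 to 1281 in N6 and 1180 to 1525 in N7, against 686 to 1215 in VC and 660 to 1340 in WT, and differed by 0.57 ± 0.15 (limma adjusted p = 0.00726). MYC2 was called in neither line against VC (0.50 in N6, limma adjusted p = 0.109; 0.53 in N7, limma adjusted p = 0.0767). The kinase gene MPK3 differed by -0.47 (limma adjusted p = 0.0211), with all 8 line arrays under the floor. COI1, the jasmonate receptor, differed by 0.36 (limma adjusted p = 0.0813) and was called for N6 against VC (0.70, limma adjusted p = 0.0339). The median over the 4 probe sets tested was 0.26.
In leaf the same list had 2 genes higher and none lower, beside 9.78% and 8.58% of all probe sets. Against VC, 2 of the 4 genes were called higher in N6, beside 5.34% of all probe sets. In N7 0 were, beside 3.86%, so neither COI1 nor MPK3 was called for N7 against VC. COI1 read 747, 659 and 777 in N6 and 726, 689 and 531 in N7, against 388, 417 and 490.5 in VC and 437, 389 and 369 in WT. The COI1 difference was 0.72 ± 0.12 (limma adjusted p = 0.00151). MPK3 was higher by 1.49 and 0.95 on its 2 probe sets tested (limma adjusted p = 0.00338 and 0.0328). On the brighter of these it read 589, 466 and 155 in N6 and 72.9, 70.1 and 36.4 in N7, against 44.0, 49.0 and 67.9 in VC and 51.3, 38.1 and 29.7 in WT, so that the high arrays were those of N6. The dimmer one was not called against VC alone (limma adjusted p = 0.103) or against WT alone (0.0856), and its call was lost on leaving out any 1 of 9 of the 12 arrays. In root tip none of the 4 was called, beside 0.508% of all probe sets.

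Genes of a list drawn up for responses to wounding and jasmonate could mostly not be measured. Whether each of them responds to either was not tested here. Of 9 genes on this list 3 were tested in fruit (LAPA2, ADH2 and ARG1), and 1 was higher, beside 16.6% of all probe sets. It was ARG1, an arginase, higher by 0.36 ± 0.08 (limma adjusted p = 0.00280). ARG1 was called in neither line against VC in fruit. Of 6 tested in leaf, 1 was lower, beside 8.58% of all probe sets. It was ARG1, lower by 0.52 (-0.52, limma adjusted p = 0.0426), a call lost on leaving out any 1 of 10 of the 12 arrays. Of 5 tested in root tip none was called, beside 0.508% of all probe sets.
In leaf the signals of TD2, LAPA1 and ARG2 lay apart between the control groups. TD2, a threonine deaminase, read 5.19, 221 and 22.7 in N6 and 16.2, 20.2 and 25.8 in N7, against 530, 182 and 337 in VC and 20.5, 44.6 and 22.4 in WT. LAPA1, a leucine aminopeptidase, read 36.5, 1704 and 41.3 in N6 and 19.9, 35.9 and 128 in N7, against 1514, 1311 and 592 in VC and 49.0, 71.6 and 95.2 in WT. All 3 VC arrays were high and all 3 WT arrays low in both. ARG2, another arginase gene, did the same on 2 of its 3 probe sets, with VC minus WT of 2.29 (95% interval 1.05 to 3.53) and 1.56 (95% interval 0.33 to 2.78), but not on the third probe set, at -0.60. None of these differences between the controls was called. TD2 was called for N7 against VC (-2.68, limma adjusted p = 0.0111) and for N6 against VC (-1.96, limma adjusted p = 0.0282), but not for the lines against both controls (-0.98, limma adjusted p = 0.0762). LAPA1 (-3.95, limma adjusted p = 0.0456) and 1 probe set of ARG2 (-2.54, limma adjusted p = 0.0216) were also called for N7 against VC. VC minus WT was 2.68 for TD2 (limma adjusted p = 0.299) and 3.92 for LAPA1 (limma adjusted p = 0.697). These are the same VC leaf arrays in which AOC read highest, and their part in the AOC result was not tested; against WT alone AOC was still lower in the lines (-0.89, limma adjusted p = 0.0131).

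**Figure D4:**
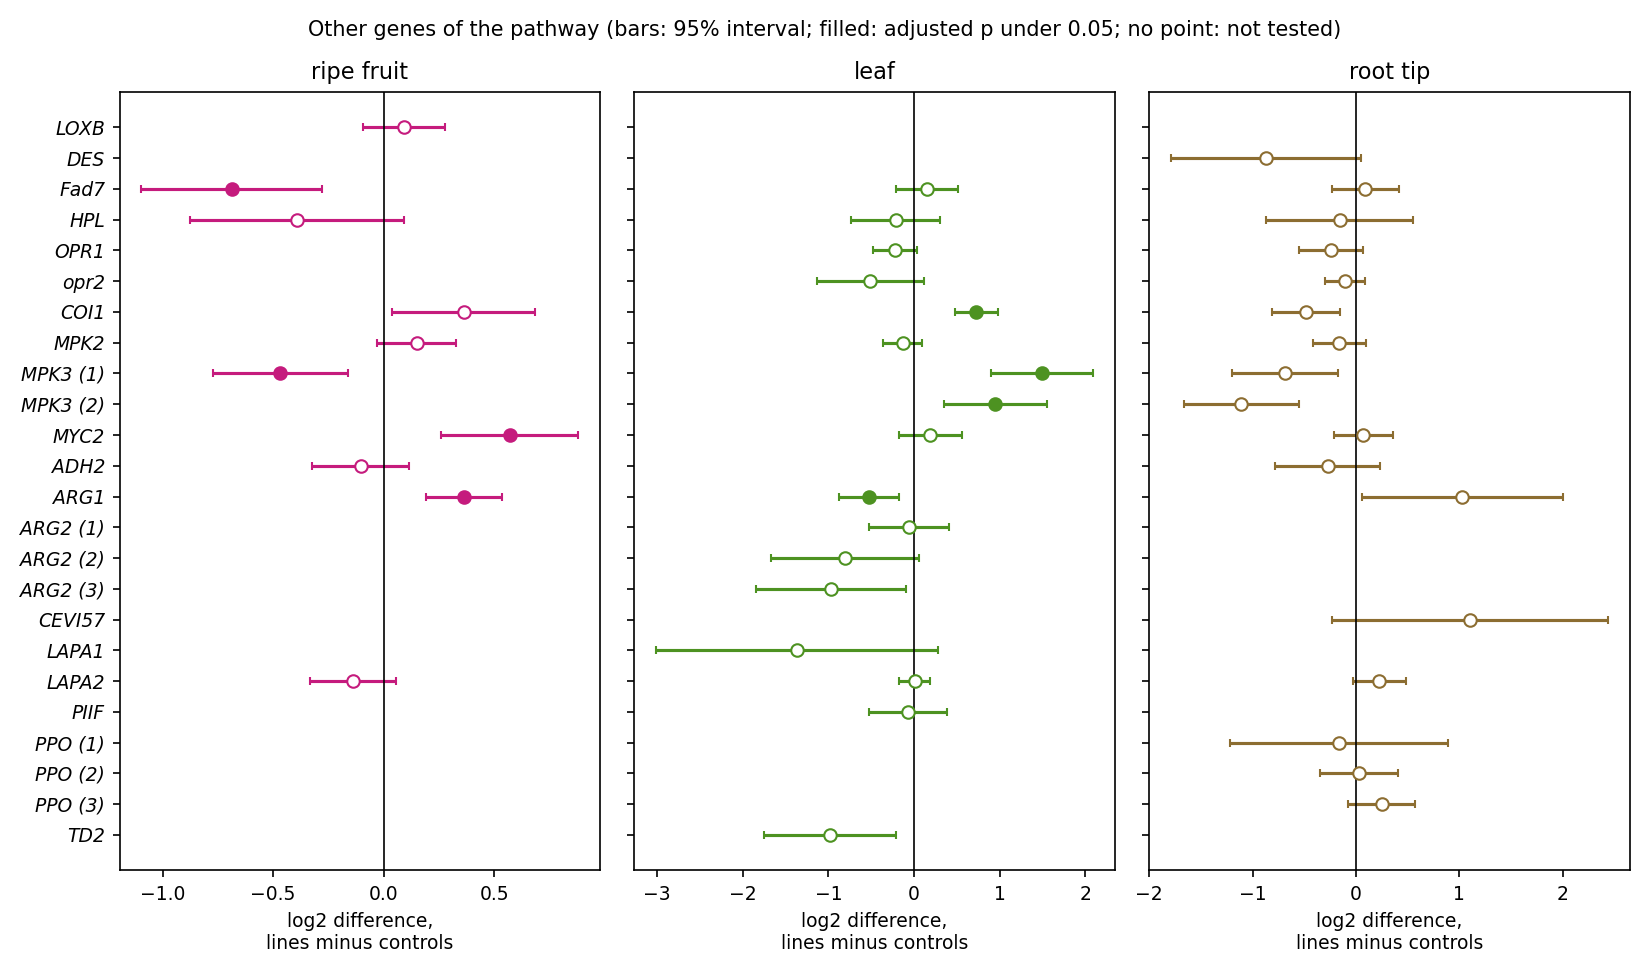
Log2 differences of lines minus controls, with 95% intervals, for the other genes of the pathway in ripe fruit, leaf and root tip; each panel has its own axis, filled points have an adjusted p under 0.05, numbers in brackets tell probe sets of a gene apart and a missing point was not tested. Filled are Fad7 (-0.69), MPK3 (-0.47), MYC2 (0.57) and ARG1 (0.36) in fruit and COI1 (0.72), MPK3 (1.49 and 0.95) and ARG1 (-0.52) in leaf.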

How the data were processed

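The deposited intensity values are 1 Affymetrix signal per probe set and array on a linear scale, made with GCOS per the submitters' processing notes; its version and settings are not stated in the labels. Their trimmed mean, leaving out 2% at either end, was 500 on all arrays, so the authors' global scaling was kept. It assumes an equal trimmed mean of RNA between samples.

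Signals were floored at 50 and taken to log2. A probe set was tested if above the floor on 4 fruit, 3 leaf or 3 root tip arrays. Two-sided tests used limma 3.58.1 in R 4.3.3 (genotype means, trended variance, Benjamini-Hochberg adjustment) per tissue, and over all 40 arrays for differences between tissues. The scripts were tested on simulated data. The number of arrays limits the precision.

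Groups came from the sample titles. Symbols came from the platform annotation: 909 probe sets had 1, and 885 of these matched the RefSeq gene table. No sequences are shown.

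The 6 genes and the lists were chosen with earlier results of these data known. Genes named for likeness were the 3 with the highest Pearson r over 12 group means; from the lists, called genes and those with a known role in the pathway were named. Alternatives were other scalings, floors and filters, a replicate block, the 3'/5' ratio as covariate, 1 control group alone, and arrays left out.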

Additional observations from a re-analysis of the deposited data

Results flagged for a closer look

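In fruit N6, LOX1.1 read 3350.8 on replicate 1, far above the other 3 arrays, with a gap of 0.901 of the group's range on the log2 scale. AOC in fruit N6 read 140.8 on replicate 4, with a gap of 0.835 of the log2 range. Chance sets apart an array this far in about 1 of 20 groups, and 24 groups were looked at.

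The lines' difference changed between leaf and fruit, by the test of the difference itself with limma, by -2.12 for LOX1.1, -1.42 for TomloxE, 1.76 for loxC, 1.74 for loxD, -1.12 for AOC and -1.37 for OPR3. Between root tip and fruit it changed by -2.45 for LOX1.1, -1.49 for TomloxE and -1.02 for OPR3. Between leaf and root tip it changed by -1.27 for AOC.

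Outside the tomato genes, a reporter probe set averaged 436.6 in leaf N7, against under 25 on every control array. It was under the floor in fruit N6.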

How the results depend on the processing

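The fruit calls of LOX1.1, TomloxE, OPR3 and loxD held in all 28 alternatives, at 1.79 to 2.33, 0.79 to 1.73, 0.81 to 1.66 and -1.97 to -1.31, and that of AOC in leaf in all 22, at -1.54 to -0.89. loxC in leaf held in 17 of 22. In leaf, 4 of 6 loxC controls lay at the floor. Causes of the changes below were not tested.

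The count of called probe sets without WT 3 and VC 4 was 3294 for fruit lines against controls, 2392 for N6 and 2816 for N7 against VC, and 717 for N7 against N6. Fruit N7 against N6 had 95 calls with median scaling and 491 with the 3'/5' covariate. With that covariate leaf had 593 calls for lines, 263 for N6 against VC and 84 for N7 against N6, and root tip had 151. With no filter leaf had 393 (N6 against VC), 219 (N7 against VC) and 91 (N7 against N6), and root tip 5. WT alone as control gave 788 in leaf and 8 in root tip, and VC alone gave 660 and 4. Median scaling moved the higher calls from 1029 of 1928 to 1277 of 1934 in fruit and from 639 of 1200 to 479 of 1206 in leaf, and the median of all fruit probe sets to 0.10.

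Leaving out 1 array gave 687 (VC 1) to 1684 (VC 4) for fruit N6 against VC, 908 (VC 3) to 2070 (VC 4) for N7 against VC and 83 (N6 3) to 286 (WT 3) for N7 against N6. In leaf it gave 794 (VC 1) to 1556 (N7 3) for lines, 258 (VC 1) to 927 (N7 3) for N6 against VC, 118 (N7 2) to 963 (N7 3) for N7 against VC and 69 (N6 2) to 709 (WT 2) for N7 against N6. In root tip it gave 18 (N6 2) to 140 (N6 3).

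Replicate numbers were not taken to pair the samples. Of same-numbered pairs, 10 of 24 in fruit, 5 of 18 in leaf and 10 of 18 in root tip had a correlation over 0.1. In the same order, 5 of 16, 2 of 12 and 4 of 12 arrays correlated best with their own number. The median correlation of same-numbered pairs was 0.064, -0.009 and 0.226, against 0.026, 0.008 and -0.06 for other numbers. Some pairing in root tip therefore remains possible. With the replicate block leaf N7 against N6 had 195 calls in place of 293, and OPR3 in fruit N7 against N6 passed (limma adjusted p = 0.0394).

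Signs turned only for differences that were not called. loxC in fruit was 0.026 with VC alone and -0.20 to 0.0046 with 1 array left out. In leaf loxD was -0.047 with a floor of 25, -0.019 with no floor, -0.084 with VC alone and -0.11 to 0.39 with 1 array left out; LOX1.1 was 0.19 with the covariate, 0.10 with VC alone and -0.17 to 0.061 with 1 array left out. In root tip OPR3 was 0.10 with median scaling, 0.0077 with quantile normalization, 0.011 with VC alone and -0.076 to 0.077 with 1 array left out; AOC was -0.12 to 0.24. Control LOX1.1 in root tip minus fruit was -0.039 with median scaling. The leaf minus root tip line effect of TomloxE was -0.023 with median scaling, -0.044 with quantile normalization and -0.11 with a floor of 25.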
